A study of Mus musculus with 6 samples.

Results

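The nuclear genes for the subunits of the mitochondrial respiratory chain and the ATP synthase were followed in Neuro-2a (N2a) cells, a mouse neuroblastoma line, after knockdown of nucleophosmin 1 (NPM1). Genes were taken by symbol (Nduf followed by a, b, c, s or v, Sdha to Sdhd, Uqcr, Cyc1, Cycs, Cox4 to Cox8 and Atp5, without named pseudogenes), which gave 89 genes of 26656 in the table. By complex these were 38 genes of complex I, 4 of complex II, 9 of complex III, 1 for cytochrome c, 20 of complex IV and 17 of complex V. Ndufa4 and Ndufa4l2 were counted with complex IV, where the NDUFA4 protein sits. The CTR group was wild-type N2a cells transfected with the non-target pLKO.1-shCTR plasmid and the NPM1 KD group was the same line transfected with pLKO.1-shNpm1, a short hairpin RNA against Npm1. The libraries were made to ask whether altered H3K79me2, a histone methylation mark, reaches the transcriptome when NPM1 is lost. Total RNA was taken after 72 h (3 days in vitro), with 3 libraries per group, and sequenced as barcoded PCR cDNA long reads. The labels of both groups carry the same note of selection with 9.3 µg/ml puromycin for the knockdown experiments, wording that leaves unclear whether it covers the CTR cells. They name a single hairpin and a single cell line, and they give 3 biological replicates in one place and 2 in another, so the spread between libraries may in part be technical.

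Oxidative phosphorylation rests on 5 complexes of the inner mitochondrial membrane. Complex I (NADH dehydrogenase) and complex II (succinate dehydrogenase, also an enzyme of the citric acid cycle) pass electrons to ubiquinone, complex III passes them on to cytochrome c, and complex IV (cytochrome c oxidase) hands them to oxygen. Complexes I, III and IV pump protons, and complex V, the ATP synthase, lets the protons flow back through a rotating ring of c subunits and makes ATP. Most subunits are encoded in the nucleus and imported, and a few core subunits are encoded in mitochondrial DNA. The 13 mitochondrially encoded subunits were not analysed here.

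The values are regularized log (rlog) values on the log2 scale, normalized for library size, and all values of 1 or more in size are whole numbers, so that a step of 1 between rounded values can stand for a small or a large change. Relative depth, read from genes with few reads, was 1.11 to 1.30 in the CTR libraries and 0.784 to 0.961 in the NPM1 KD libraries, so depth moved with the group, and the part of depth in any difference was not tested. Npm1 itself stood at 10 in every CTR library and at 8 in every NPM1 KD library (difference −2, SE 0.33, limma adjusted p = 3.23e-06). Of 16 markers of a sympathoadrenal neuroblastoma line, 8 passed the filter on low values, among them Hand2, whereas Nefl and Nefm were at 0 in every library. Of those 8, 6 had a lower mean in NPM1 KD, with a mean difference of −0.75, and 5 (62.5%) lay below CTR in every NPM1 KD library, against 3.41% of all tested genes. Isl1 (5 against 4), Stmn2 (9 against 8) and Tubb3 (8 against 7) did so with an adjusted p of 0.0791 in limma, and 2 were called lower, the granins Chga (7, 7 and 7 against 5, 6 and 6, adjusted p = 0.026) and Chgb (8, 8 and 7 against 6, 6 and 6, adjusted p = 0.0011), and their part in the results below was not tested. Of the 16 fibroblast, macrophage and astrocyte markers, 0 passed the filter, 11 were at 0 in every library, and the highest mean normalized count was 1.35. These are bulk values, so fewer cells of a kind and less RNA per cell cannot be told apart.

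Of the 89 genes, 81 reached the filter on low values (a mean rlog of log2 of 10) and were tested. None of them passed an adjusted p of 0.05 in limma with an allowance for the rounding (smallest adjusted p = 0.0791). Of all 5752 tested genes, 0.487% passed, 4 higher (0.0695%) and 24 lower (0.417%) in NPM1 KD. The largest difference among the 81 was 1.00, and such a step without any spread gave only that smallest adjusted p wherever a subunit gene showed it. The lack of calls therefore does not show that these genes were unchanged. Without the allowance for rounding 5 of the 81 passed, against 5.23% of all tested genes, and without the intensity trend of the prior 6 passed, against 6.08%. At an unadjusted p of 0.05, 10 of the 81 (12.3%) passed, 6 higher and 4 lower, against 14.1% of all tested genes. The respiratory genes were strongly expressed as a group: together they held 3.15% of the summed mean normalized counts, and 45 of the 81 had a value of at least 8 in every library. The mean value was equal in both groups for 43 of the 81, higher in NPM1 KD for 22 and lower for 16, with a median difference of 0.00, and 41 (50.6%) had the same value in all 6 libraries. Over all tested genes the median difference was also 0.00, 24.6% were higher and 27.4% lower, and 40.2% had the same value in all libraries. Among the 958 tested genes whose mean normalized count reached the lower quartile of the respiratory genes, 222 were higher, 221 lower and 476 had the same value throughout.

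**Figure D1:**
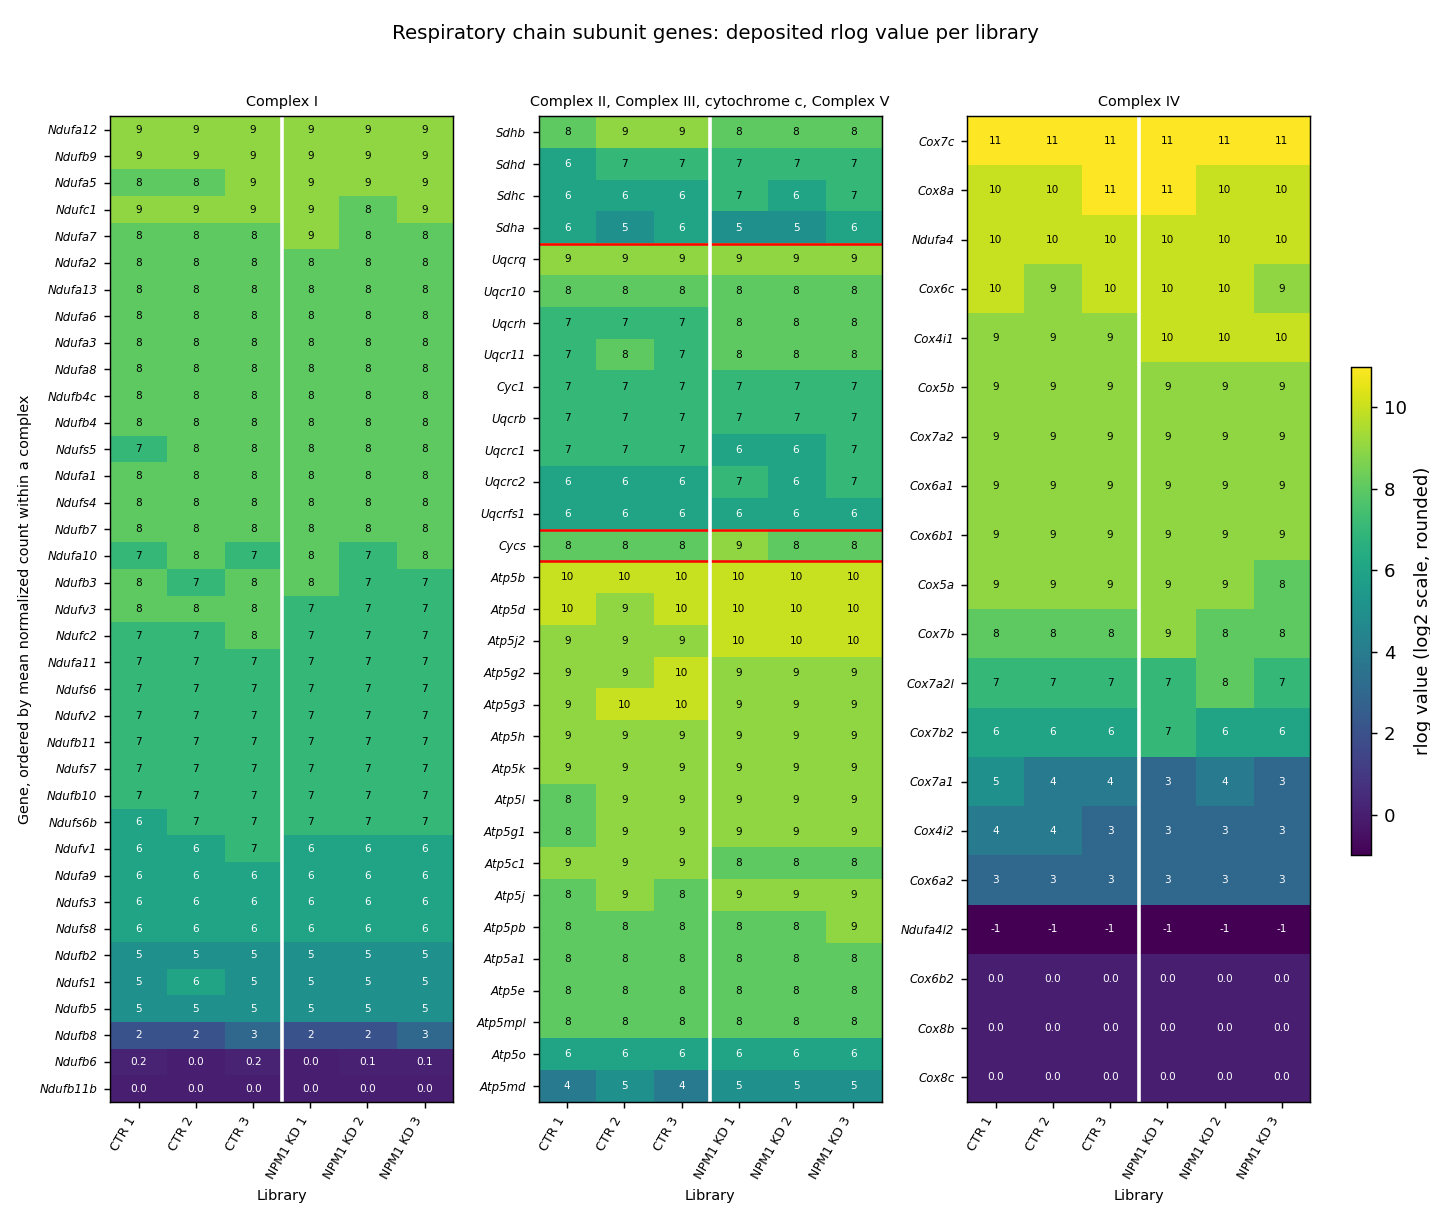
Deposited rlog value (log2 scale, rounded by the authors) of 88 of the genes in the 3 CTR and 3 NPM1 KD libraries, with genes in rows ordered by mean normalized count within a complex and red lines between complexes. Most rows keep a single colour across all 6 libraries, and Cox4i1, Atp5j2, Uqcrh, Atp5c1 and Ndufv3 change colour at the white line between the groups.

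The 5 genes whose groups did not overlap were spread over complexes I, III, IV and V. They make 6.17% of the 81 genes, and 5.6% of all tested genes had groups that did not overlap (2.19% with NPM1 KD higher, 3.41% with NPM1 KD lower). Higher in NPM1 KD were Cox4i1, the ubiquitous isoform of the COX4 subunit that regulates cytochrome c oxidase, Atp5j2, a small membrane subunit (f) of the ATP synthase, and Uqcrh, the hinge protein of complex III. Lower were Atp5c1, the γ subunit that forms the rotating central stalk of the ATP synthase, and Ndufv3, an accessory subunit of the NADH-binding module of complex I. Each of the 5 differed by 1.00 on the rlog scale, and limma gave each an adjusted p of 0.0791, above the threshold.

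Cox4i1 was at 9 in CTR 1, 2 and 3 and at 10 in NPM1 KD 1, 2 and 3 (mean normalized count 706). Atp5j2 showed the same values, 9 in each CTR and 10 in each NPM1 KD library (740). Uqcrh was at 7 in each CTR library and at 8 in each NPM1 KD library (191). All 3 thus had a step between the groups and no spread inside either. Atp5c1 had the opposite sign, with 9 in each CTR library and 8 in each NPM1 KD library (386). Ndufv3 was at 8 in each CTR library and at 7 in each NPM1 KD library (192). The log2 of the mean normalized count of all 5 lay close to a border between whole numbers, within 0.0312 to 0.0907 of it, whereas the median distance was 0.261 for the 76 genes with overlap. The same held for all tested genes, with a median distance of 0.0853 where the groups did not overlap and 0.248 where they did. Close to a border, a small difference is enough to move a rounded value by 1.

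How large the differences of these genes can be was read from the rounded values together with the mean normalized count, which the authors did not round. The constants of the rlog transformation were recovered from 397 genes that keep their decimals, all of them with few reads. They gave the values of those genes back with a root mean square error of 0.000759. That error was not measured at the higher counts of the genes below. Given these constants, the Uqcrh mean in NPM1 KD had to lie between 1.155 and 4.665 times the CTR mean. That of Cox4i1 had to lie between 1.08 and 3.83 times and that of Atp5j2 between 1.06 and 4.13 times. Atp5c1 in NPM1 KD lay between 0.219 and 0.850 of the CTR mean, and Ndufv3 between 0.207 and 0.853. Under this model the sign of these 5 differences between the libraries was fixed, but the smallest change allowed was 6% for Atp5j2. The 5 were chosen for groups that did not overlap, so limits on one side of 1 largely follow from that choice. They are no separate support for the direction. Sdhc, which encodes a membrane anchor of complex II, was the only other gene whose limits stayed on one side of 1 (1.06 to 5.04), and its lower limit came down to an equal mean with the dispersion constant doubled. For the remaining 71 of the 77 genes treated this way the limits lay on both sides of 1. Their width was large: over the 77 genes the median limits were 0.525 and 2.04, limits of 33 genes allowed a halving or more, those of 40 a doubling or more, and only Cox5b, Ndufb7 and Ndufs4 were held within 1.5-fold either way. An equal rounded value thus does not show that a gene of this group was stable.

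**Figure D2:**
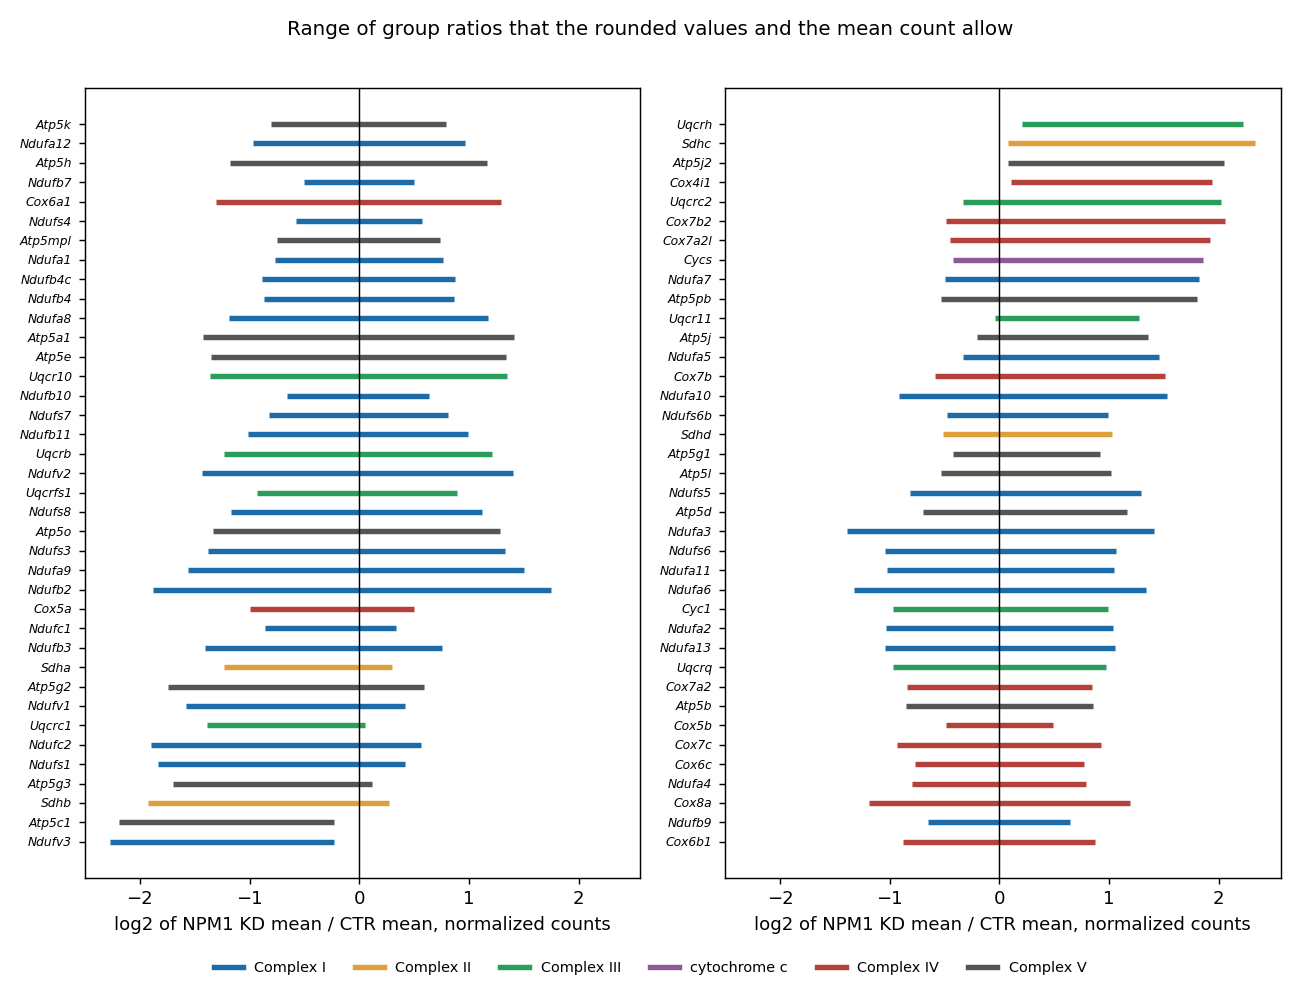
Bars give, for 76 genes with a mean normalized count of at least 30, the range of log2 ratios between the NPM1 KD and the CTR mean that the rounded values and the mean count allow, sorted by the middle of the range from bottom left to top right and coloured by complex. The black line marks equal means; 6 bars stay clear of it (Uqcrh, Cox4i1, Atp5j2 and Sdhc above, Atp5c1 and Ndufv3 below) and 70 cross it.

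Genes with few reads could be followed further, because the mean normalized count of such a gene can be written as whole reads per library in few ways. For each of 8 respiratory genes with a mean normalized count under 30, exactly 1 set of reads also gave the rounded rlog values back. The search is less certain at higher counts: among other genes a single solution was found for 100% at a mean count of 11 to 14, 79.3% at 14 to 17 and 52.7% at 25 to 30, and when the mean count was moved at random a solution still turned up for 3.33%, 25.3% and 46.7%. The reads of Atp5md and Ndufb5, at 25 to 30, are therefore the least certain. The clearest separation was in complex IV. Cox4i2, the COX4 isoform known from lung and from cells kept in low oxygen, had 40, 21 and 12 reads in the CTR libraries and 3, 3 and 0 in the NPM1 KD libraries, in the order of their numbers. Divided by relative depth, these were 19.7 ± 11.2 in CTR and 2.48 ± 2.15 in NPM1 KD (SD, n = 3), a ratio of 7.96. Cox7a1, the isoform of COX7A found in heart and skeletal muscle, had 46, 37 and 22 reads with CTR, against 4, 6 and 4 with NPM1 KD. Its normalized reads were 28.4 ± 8.66 in CTR and 5.49 ± 1.56 in NPM1 KD (SD, n = 3), a ratio of 5.17. Both genes were lower in every NPM1 KD library than in any CTR library.

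The exact permutation test (two-sided, 3 against 3 libraries) gave p = 0.1 for either gene, the smallest p that 3 against 3 allows, and neither passes 0.05. Counting error alone gave 95% intervals (exact binomial) of 3.75 to 24.1 for the ratio of summed reads of Cox4i2 and 3.01 to 10.0 for Cox7a1. Leaving out each library in turn kept the ratio between 5.30 and 10.9 for Cox4i2, the lowest value without NPM1 KD 3, and between 4.38 and 6.13 for Cox7a1. In 871 genes outside the set, with a mean normalized count of 5 to 30 and reads found the same way, NPM1 KD lay below CTR in every library in 12.9%, and in 0.344% (3 genes) it did so with a CTR mean at least 5 times the NPM1 KD mean, a limit chosen after the values of Cox4i2 and Cox7a1 were seen. On the rlog scale, which shrinks such genes, Cox4i2 stood at 4, 4 and 3 with CTR against 3, 3 and 3 with NPM1 KD, and Cox7a1 at 5, 4 and 4 against 3, 4 and 3. In limma the adjusted p was 0.470 and 0.109.

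Of the ubiquitous partners of these isoforms, Cox4i1 was higher in NPM1 KD, as described above, and Cox7a2 was at 9 in all 6 libraries, with limits of 0.559 and 1.795 for its ratio. The other tissue-type isoforms were few in reads or absent. Cox6a2, the muscle isoform of COX6A, had 2, 10 and 21 reads with CTR against 7, 4 and 6 with NPM1 KD, so that the groups overlapped, and the ratio of 1.41 (CTR over NPM1 KD) turned to 0.697 without CTR 3. Ndufa4l2, the NDUFA4 paralog known as a hypoxia target, had 2, 0 and 1 reads in CTR and none in NPM1 KD, at or under 3 reads in both groups, and no ratio is given. Cox6b2, Cox8b and Cox8c were listed at 0 in every library. Cox7b2, a second COX7B gene, was at 6 in all CTR libraries and at 7, 6 and 6 in NPM1 KD.

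Atp5md, which encodes the small membrane subunit DAPIT of the ATP synthase, was the gene with few reads that was higher in NPM1 KD. It had 15, 30 and 18 reads with CTR against 35, 30 and 25 with NPM1 KD although the NPM1 KD libraries were shallower. Normalized reads were 17.1 ± 5.54 in CTR and 35.6 ± 9.33 in NPM1 KD (SD, n = 3), a ratio of 2.08 with a 95% counting interval of 1.45 to 2.84 for the summed reads, and 1.82 to 2.52 with each library left out in turn. All 3 NPM1 KD libraries were above all CTR libraries, which held for 11% of the 871 genes, and for 3.21% with at least 2 times the CTR mean (a limit chosen after its value was seen), and the exact permutation test again gave its smallest p of 0.1. The rlog values were 4, 5 and 4 with CTR against 5, 5 and 5 with NPM1 KD. Ndufb5, an accessory subunit of complex I, had 44, 31 and 36 reads with CTR against 26, 16 and 24 with NPM1 KD, and its normalized reads overlapped (30.5 ± 6.02 against 25.8 ± 7.02). Ndufb8, another accessory subunit, also overlapped, with 2, 5 and 14 reads with CTR against 2, 3 and 8 with NPM1 KD, and its ratio of 1.24 (CTR over NPM1 KD) turned to 0.564 without CTR 3. Ndufb6 had 7 reads in all. In the GENCODE vM21 annotation 39% of its exonic bases are overlapped by Smim27 on the other strand. The strand setting is not known, and the part of read assignment in this low count was not tested.

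**Figure D3:**
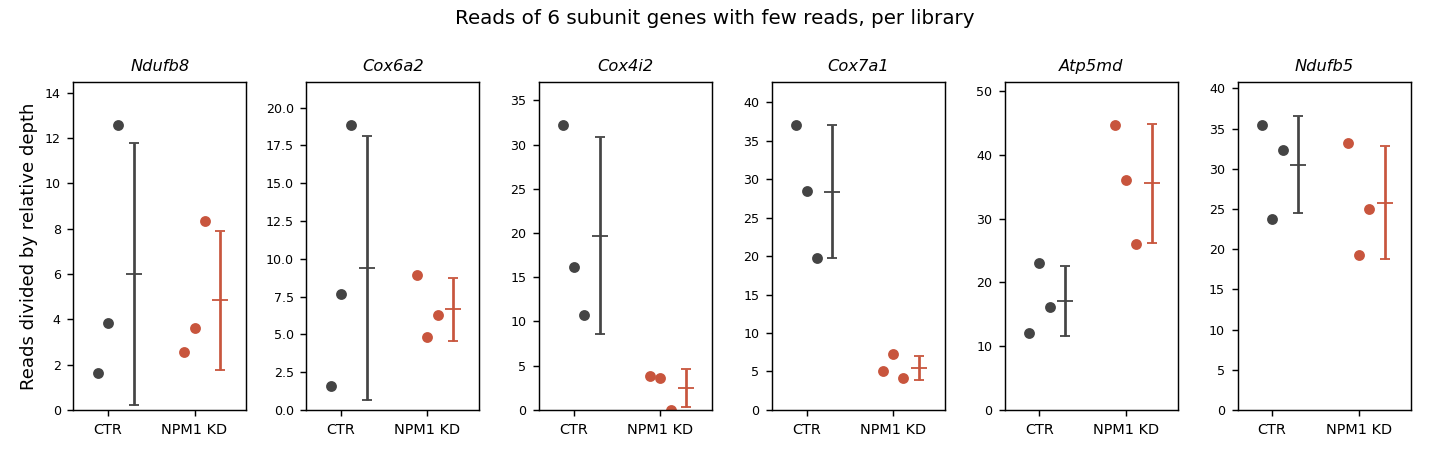
Reads divided by the relative depth of the library for the 6 genes with a mean normalized count of 5 to 30, with a point for each library, and the mean and SD of each group beside the points (n = 3). For Cox4i2 and Cox7a1 all NPM1 KD points lie below all CTR points, for Atp5md they lie above, and Ndufb8, Cox6a2 and Ndufb5 overlap.

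The stretches before the start sites of 4 genes that separated the groups are given because they stand for both directions: Cox7a1 and Atp5c1 were lower and Atp5md and Uqcrh higher in NPM1 KD. They are the 150 bases before the annotated start in RefSeq (build GRCm38.p6, 5′ to 3′ on the gene's strand). Cox7a1 lies at chr7:30184021-30184170 on the plus strand, Atp5c1 at chr2:10080433-10080582, Atp5md at chr19:47090648-47090797 and Uqcrh at chr4:116075071-116075220, these 3 on the minus strand. Capitals mark letters of a searched motif, the NRF-1 motif in Atp5c1 and the ETS motif, read on the other strand, in Uqcrh. Atp5c1 has 2 listed starts, of which the stretch precedes 1, and the stretches of Cox7a1 and Atp5md hold none of the motifs searched, although the longer windows described next hold the ETS motif in Atp5md and the ACGTG core in Cox7a1.
Cox7a1: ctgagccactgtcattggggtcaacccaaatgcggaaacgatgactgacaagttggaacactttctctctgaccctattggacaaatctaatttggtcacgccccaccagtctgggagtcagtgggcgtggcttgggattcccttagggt
Atp5c1: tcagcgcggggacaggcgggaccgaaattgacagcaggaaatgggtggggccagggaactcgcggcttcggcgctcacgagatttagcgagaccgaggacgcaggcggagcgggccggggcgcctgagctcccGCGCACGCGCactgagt
Atp5md: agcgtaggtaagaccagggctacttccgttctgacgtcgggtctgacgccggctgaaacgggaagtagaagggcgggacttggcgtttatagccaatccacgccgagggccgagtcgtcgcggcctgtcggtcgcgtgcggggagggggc
Uqcrh: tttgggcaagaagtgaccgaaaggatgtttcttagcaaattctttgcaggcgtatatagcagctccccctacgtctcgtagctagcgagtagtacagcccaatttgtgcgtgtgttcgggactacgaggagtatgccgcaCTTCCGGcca

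Promoter windows (250 bases before to 50 after the start) were found by symbol for 69 of the 89 genes, 74 windows in all. NRF-1, the GABPA factor of the ETS family, YY1 and ERR are factors long tied to nuclear respiratory genes. Motifs were searched on both strands. The NRF-1 motif (GCGCA, any base, GCGC) was present in 24.3% of the 74 windows and in 4.60% of all 32851 windows, the ETS motif CCGGAAG in 23.0% and 8.86%, the YY1 motif AAGATGGC in 13.5% and 2.75%, and the ERR motif TCAAGGTCA in 2.70% and 0.423%. The core of the hypoxia response element, ACGTG, was in 25.7% and 19.6%. These are matches of letters and not measured binding. Of 20 regulators fixed as a list, 10 were tested, 2 had a higher and 2 a lower mean in NPM1 KD, and none was called. The largest differences were those of Mycn and Mterf4. Mycn was at 5, 4 and 5 with CTR against 4, 4 and 4 with NPM1 KD (−0.67, limma adjusted p = 0.330). Mterf4 was at 3, 3 and 4 against 4, 4 and 4 (0.67, limma adjusted p = 0.396). Gabpb1, Yy1, Tfam and Hif1a each had a single value in all 6 libraries (4, 4, 5 and 4), which does not show that they were stable. Nrf1 missed the filter with a mean normalized count of 9.50.

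Among the complexes, complex I had the largest share of genes with equal rounded means (65.7%). The share was 48.0% over all tested genes and 53.8% over those whose mean normalized count reached the lower quartile of the respiratory genes. Its tested genes include the 2 processed pseudogene entries Ndufb4c and Ndufs6b. Equal rounded values do not show that a gene was stable, as in Ndufa9, with ratio limits of 0.339 and 2.836. Of its 35 tested genes, 23 had the same mean in both groups, 5 were higher and 7 lower, and the mean difference was −0.03. The nuclear core subunits, among them those that bind the flavin and iron-sulphur clusters, included no gene with a higher rounded mean. Ndufs3, Ndufs7, Ndufs8 and Ndufv2 had a single value in all libraries (6, 7, 6 and 7). Ndufs1 was at 5, 6 and 5 with CTR against 5, 5 and 5 with NPM1 KD, and Ndufv1 was at 6, 6 and 7 against 6, 6 and 6. The difference of both was −0.33 (adjusted p = 0.713), carried in each case by a single library. Their ratio limits, 0.281 to 1.332 for Ndufs1 and 0.334 to 1.333 for Ndufv1, included an equal mean, so their signs are not fixed. Core subunits with a single value had wide limits too, as in Ndufv2 (0.370 to 2.652). The 12 NDUFA genes included Ndufa5, at 8, 8 and 9 with CTR against 9, 9 and 9 with NPM1 KD (difference 0.67, adjusted p = 0.330), and 9 that were equal. Of the 8 tested NDUFB genes other than copies, 7 were equal. The table lists the identifier of Ndufb4 also under the symbols Ndufb4b and Ndufb4c, and a further entry Ndufb4c with its own identifier is a processed pseudogene in GENCODE vM21. The mean normalized counts of Ndufb4 and that entry were 231 and 232, and how reads were split between the copies is uncertain. The same applies to Ndufs6 and the processed pseudogene Ndufs6b (151 and 102). Ndufb11b was at 0.

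**Figure D4:**
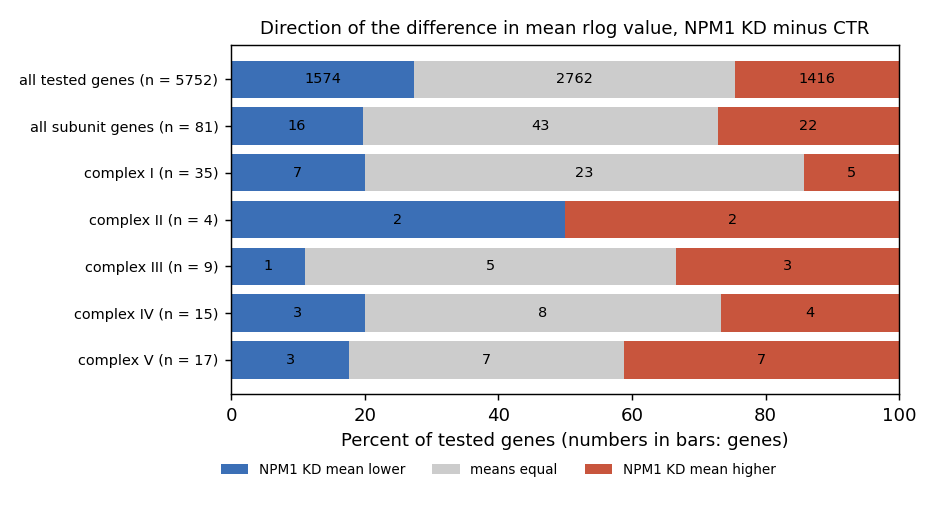
Share of tested genes with a lower (blue), equal (grey) or higher (red) mean rlog value in NPM1 KD than in CTR, for all tested genes, the 81 tested subunit genes and each complex. Numbers in the bars are genes; cytochrome c (1 gene) has no bar of its own. Complex I has the widest grey part, 23 of 35.

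In complex II the rounded means of the catalytic and the anchoring subunits differed in sign, without any of the 4 passing the test. The ratio limits of Sdha (0.425 to 1.228), Sdhb (0.264 to 1.211) and Sdhd (0.699 to 2.042) included an equal mean, so their signs are not fixed. Sdha, the flavoprotein, was at 6, 5 and 6 with CTR against 5, 5 and 6 with NPM1 KD (difference −0.33, adjusted p = 0.713). Sdhb, the iron-sulphur subunit, was at 8, 9 and 9 and at 8, 8 and 8 (−0.67, adjusted p = 0.330). The anchors had the opposite sign in their rounded means. Sdhc was at 6 in all CTR libraries and at 7, 6 and 7 in NPM1 KD (0.67, adjusted p = 0.330), and Sdhd was at 6, 7 and 7 and at 7, 7 and 7 (0.33, adjusted p = 0.713).

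Complex III had the largest mean difference of the complexes with more than 1 gene, 0.19 over 9 genes, with 3 higher, 5 equal and 1 lower. Beside Uqcrh, Uqcr11, a small accessory subunit, was at 7, 8 and 7 in CTR and at 8 in all NPM1 KD libraries (0.67, adjusted p = 0.330). The catalytic subunits Cyc1 (cytochrome c1) and Uqcrfs1 (the Rieske iron-sulphur protein) had the same value throughout, 7 and 6. The rounded means of the core proteins Uqcrc1 and Uqcrc2 had opposite signs. Uqcrc1 was at 7, 7 and 7 with CTR against 6, 6 and 7 with NPM1 KD (−0.67). Uqcrc2 was at 6, 6 and 6 against 7, 6 and 7 (0.67), each with an adjusted p of 0.330. The ratio limits of Uqcrc1 (0.382 to 1.040) and of Uqcrc2 (0.797 to 4.061) included an equal mean. Cycs, cytochrome c itself, was at 8 in every library but NPM1 KD 1, where it was at 9.

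In complex IV the 11 ubiquitous subunits, Ndufa4 included, held 8 genes with equal means. Ndufa4 was at 10, Cox7c at 11, and Cox5b, Cox6a1, Cox6b1 and Cox7a2 were at 9 in all 6 libraries. Cox5a was at 9 except for 8 in NPM1 KD 3, and Cox7b was at 8 except for 9 in NPM1 KD 1. Cox6c (10, 9 and 10 against 10, 10 and 9) and Cox8a (10, 10 and 11 against 11, 10 and 10) varied inside both groups with equal means. Cox4i1 was thus the only ubiquitous subunit with a difference of more than 0.33. Cox7a2l, which takes part in joining complexes III and IV into supercomplexes, was at 7 except for 8 in NPM1 KD 2.

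In complex V, 7 of 17 genes had a higher mean, 7 an equal and 3 a lower, with a mean difference of 0.10. In the catalytic F1 head, Atp5a1 (8) and Atp5b (10), the α and β subunits, had a single value in all libraries while Atp5c1 was lower, as given above. The c ring is encoded by 3 genes whose mature protein is the same. Atp5g1 was at 8, 9 and 9 with CTR against 9, 9 and 9 with NPM1 KD (0.33, adjusted p = 0.713). Atp5g2 was at 9, 9 and 10 and 9, 9 and 9 (−0.33, adjusted p = 0.713), and Atp5g3 at 9, 10 and 10 and 9, 9 and 9 (−0.67, adjusted p = 0.330). The rounded means of the ring genes had no common sign, but the ratio limits of all 3 included an equal mean. They were 0.748 to 1.893 for Atp5g1, 0.299 to 1.502 for Atp5g2 and 0.309 to 1.083 for Atp5g3, so their signs are not fixed. By rounded means, the 5 small membrane subunits and the 4 subunits of the peripheral stalk held no lower gene, against 27.4% of all tested genes. Of these subunits 3 and 2 were higher and 2 and 2 equal, among them Atp5j at 8, 9 and 8 and 9, 9 and 9 (0.67, adjusted p = 0.330). The ratio limits of Atp5j (0.871 to 2.554), Atp5l (0.693 to 2.025) and Atp5pb (0.690 to 3.479) included an equal mean, so their signs are not fixed. The limits of the subunits with equal rounded means also lay on both sides of an equal mean.

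Summed over the complexes, the libraries overlapped. The mean rlog value of the 81 genes was 7.605, 7.69 and 7.73 in CTR 1, 2 and 3 and 7.75, 7.67 and 7.70 in NPM1 KD 1, 2 and 3, a difference of 0.03 that became −0.0021 without CTR 1, and the groups also overlapped within each complex. Over all tested genes it was 5.31 ± 0.00342 in CTR and 5.29 ± 0.0191 in NPM1 KD (SD, n = 3), lower in every NPM1 KD library. Single libraries differed from both others of their group in 5 to 9 of the 81 genes, most often CTR 2 (9 genes) and CTR 1 (8, of which 7 lower).

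Neighbouring gene groups held no called gene either. Of 55 assembly factors of the complexes, 54 were in the table and 34 tested: 8 had a higher mean in NPM1 KD, 20 an equal and 6 a lower, none was called, and none had groups that did not overlap. Of 19 citric acid cycle and pyruvate dehydrogenase genes other than the subunits of complex II, 18 were tested, of which 3 were higher, 7 equal and 8 lower, with a mean difference of −0.20 against −0.02 over all tested genes. None was called, but Fh1 (fumarase) was at 6 in each CTR and at 5 in each NPM1 KD library, and Suclg2, a subunit of succinyl-CoA ligase, at 5 and at 4 (difference −1 and adjusted p = 0.0791 for both). Cs, citrate synthase, had the same difference and adjusted p, with 9, 9 and 9 against 9, 7 and 8, so that its groups overlapped. The log2 of the mean normalized count lay 0.0213 from a border between whole numbers for Suclg2, 0.0024 for Cs and 0.156 for Fh1. Close to a border a small difference can move a rounded value by 1. With the robust prior the limma adjusted p was 0.246 for Suclg2 and 0.0669 for Fh1. Fh1 and Suclg2 make 11.1% of the 18 genes, against 3.41% of all tested genes with NPM1 KD below CTR in every library. At an unadjusted limma p under 0.05, 5 of the 18 were lower and 1 higher. Of all 5752 tested genes, 464 were lower and 349 higher at that limit.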

How the data were processed

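The sample labels gave each library's group and number, since the text of the study describes its other assays but not these libraries. The submitters' processing notes name minimap2, featureCounts, DESeq2 and the build GRCm39; versions, strand setting and annotation are not given in the sources used here. The authors deposited rlog values, a log2-scale score for every gene in every library, rounded to whole numbers except between −1 and 1, and, from their own comparison, the mean normalized count (another kind of value, pooled over all libraries) together with fold changes, standard errors, statistics and p-values, of which only the mean count was used. The tables hold 26913 rows with 26656 gene IDs. For 154 IDs given under several symbols, 1 row was kept.

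A mean rlog of log2 of 10 or more was required for testing, two-sided, with limma 3.58.1 in R 4.3.3 (lmFit, eBayes with intensity trend) on all 6 libraries, with Benjamini-Hochberg adjustment over all 5752 genes and a threshold of 0.05. The variance within groups was not allowed below 0.0833, the variance that rounding adds. The fit was tested on simulated data, in which the planted differences were larger than any of the subunit genes. The genes followed, the lists, the tests and the filter were chosen with earlier results of these data known. Named are Npm1, genes called or without overlap between groups, the defining subunits of each complex, and the genes whose reads were found; further genes (Uqcr11, Ndufa5, Atp5j, Cox7a2, Cox7b and the like) were named after their values were seen. Atp5if1 was not found under that symbol. Some genes that the rule names or the counts include are not reported or drawn here.

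Total reads per library are not given. Relative depths came from the mean counts of genes with few reads. With them and the rlog constants (prior variance 0.140, dispersion 0.0521 plus 1.52 divided by the mean), whole reads were searched for genes with a mean count under 30, an analysis added after seeing the data. Of 150 genes tried in each of 7 ranges of mean count from 5 to 30, 100% had a solution; a single one was found for 100% at 5 to 8 and 52.7% at 25 to 30. When the mean count was moved at random, 0% to 46.7% had one. Intervals cover counting error only, and PCR copies were not removed.

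Alternatives changed the filter, the allowance for rounding, the prior, the centring, the block, the libraries and the threshold. Motifs were searched in RefSeq promoters (GRCm38.p6), and no coordinates were moved between builds.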

Additional observations from a re-analysis of the deposited data

How the results depend on the processing

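None of the 81 genes was called under the 2 other filters, no filter, draws of unrounded values, the robust prior, centring, the block or any left-out library, whereas 5 were called without the allowance for rounding (3 higher, 2 lower; background 5.23%), 6 without the intensity trend (3 higher, 3 lower; background 6.08%) and 5 at an adjusted p of 0.10. The 5 called without the allowance are the genes whose groups did not overlap, which have no spread within either group. Over all tested genes 28 were called, and 11 with no filter, 301 without the allowance, 350 without the trend, 287 at an adjusted p of 0.10 and 5 to 10 with a library left out, whichever it was. Draws of unrounded values gave 0 calls over all genes (285 at an unadjusted p under 0.05), not even Npm1 (adjusted p = 0.982), so that setting says nothing about the subunits. Groups that did not overlap numbered 5 of 81 (6.17%, all tested genes 5.6%). With a library left out they numbered 5 to 8, with 8 (9.88%) without CTR 2 and without NPM1 KD 2, where all tested genes gave 7.96% and 8.29%. After centring, where small shifts break ties between equal whole numbers, they numbered 64 (62 higher, 2 lower; 79%), against 64.8% of all tested genes (3534 higher, 196 lower). The sign of the rlog difference turned in none of 33 genes under the alternatives run, although some small differences became 0. Most of this was fixed in advance. The filters, the allowance for rounding, the prior, the block and the threshold leave the difference itself unchanged. Only the draws, the centring and the left-out libraries could change it. A difference without spread in either group cannot turn when a library is left out, and a difference of 0 has no sign. Cox7a1 and Atp5md are not among the 33. The mean difference over the 81 genes, 0.03, turned to −0.0021 without CTR 1. The ratio limits of 6 genes stayed on one side of an equal mean with the dispersion constant halved and those of 5 with it doubled, where Sdhc was lost. For the 5 genes whose groups did not overlap this largely follows from how they were chosen.

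Deviations of libraries with the same replicate number correlated by 0.01, 0.00 and 0.03. They come from values rounded to whole numbers, so pairing could go unseen, and whether the numbers pair the libraries is not known. With the replicate block, 8 genes were called over all tested genes and 0 subunits. Depth and rounding limit what can be seen: equal values can hide changes of over 2-fold, as in Ndufb2, which had a single value in all libraries and limits of 0.272 and 3.362, and reads per library were searched only for the genes with a mean count under 30.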
